A study of Mus musculus with 6 samples.

Results

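The unfolded protein response is the program by which a cell answers misfolded protein in the endoplasmic reticulum, the compartment where secreted and membrane proteins are folded. A list of 34 genes of this response and of protein folding in the reticulum was followed here in muscle stem cells. The genes were taken by symbol from a fixed list, and all 34 were among the 24980 symbols of the expression table. They were read as 4 groups by textbook role, namely 7 of the PERK-ATF4 arm, 10 of the ATF6 arm with the chaperones of the lumen, 13 of the IRE1-XBP1 arm with the degradation machinery it feeds, and 4 disulfide isomerases. Many of these genes answer to more than 1 arm, so the grouping is a reading aid.

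As background, 3 sensors sit in the membrane of the reticulum. PERK (gene Eif2ak3) slows translation and favours synthesis of the transcription factor ATF4, ATF6 is cut to release a transcription factor, and IRE1 (gene Ern1) splices the Xbp1 transcript to give an active factor. Their targets are chaperones, disulfide isomerases, and the proteins that draw failed proteins out of the reticulum for degradation. In satellite cells, the stem cells that lie under the basement membrane of the muscle fibre, phosphorylation of the translation factor that PERK acts on is known for its part in keeping the cells quiescent.

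RNA-seq libraries came from satellite cells that were isolated by flow cytometry from hindlimb muscles of adult C57BL6/J mice. Of the 6 libraries, 3 carried the label WT and 3 the label KO, where the deleted gene, under the name scERα, is that of estrogen receptor α. Tamoxifen (10 mg altogether) was injected in WT and KO mice alike and switched Cre on. The sources used here do not give the Cre driver, the deleted exons, the sex or the exact age. They do not say that the libraries are from separate mice, so each p-value covers the scatter among these 6 libraries and some of it may be technical. The values were TPM (transcript abundance as a share of the library), which are scaled for transcript length and so allow levels of different genes to be compared. TPM keeps no sequencing depth, which is unknown here, so no counting interval can be given.

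Esr1, the targeted gene, held 7.53, 6.96 and 6.94 TPM in WT and 2.92, 3.69 and 3.87 TPM in KO, with an adjusted p of 0.0925 by limma over all genes tested and p = 0.1 in an exact two-sided permutation test, the smallest that 3 against 3 libraries can give. All 16 satellite cell markers passed the filter on low values, with Pax7 between 17.9 and 32.8 TPM. Summed over the marker list, WT libraries held 542 to 697 TPM and KO libraries 583 to 727 TPM. Plasma cells, which carry a large endoplasmic reticulum, left little trace: of 6 markers Tnfrsf17 was listed at 0 in every library, and Jchain and Mzb1 reached at most 0.59 and 0.10 TPM; Sdc1, the 1 of them tested, lay between 1.13 and 1.68 TPM. The sum of 9 Schwann cell markers was 37.0 to 40.5 TPM in WT and 44.6 to 66.4 TPM in KO, with no overlap; in bulk RNA more cells of a type and more RNA per cell cannot be told apart. The sums of the fibro-adipogenic, endothelial, mural, leukocyte, erythroid and mature fibre markers overlapped between the groups. Single fibro-adipogenic markers, picked after their values were seen, did not all follow their sum: Dpt, a matrix protein, was at 26.8 TPM in WT and 44.2 TPM in KO without overlap (difference 0.70, limma unadjusted p = 0.00225), and Col1a2, a collagen chain, differed by 0.92 (unadjusted p = 0.0196). Gsn of the same list went the other way, from 73.6 TPM in WT to 63.8 TPM in KO without overlap (difference -0.21, limma unadjusted p = 0.143). Of the 7 tested markers of this list 5 were higher in KO, beside 77.6% of all genes tested. The part of all these markers in the values below was not tested.

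The stress and folding genes had slightly higher values in KO almost throughout, and no single gene passed the test. A gene was tested when it reached 1 TPM in at least 3 of the 6 libraries, which 30 of the 34 did; Trib3, Asns, Derl2 and Edem2 stayed below 1 TPM in every library. All 30 tested genes had a positive KO minus WT difference on the log2(TPM + 1) scale, between 0.05 and 0.50. The direction alone says little, because 77.6% of all 8971 genes tested were also higher in KO. The median of the 30 was 0.26, beside 0.12 for all genes tested, and 27 of the 30 lay above that general median.

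In limma, with p-values adjusted by Benjamini-Hochberg over the whole set of tested genes, 0 of the 30 passed a threshold of 0.05, and the smallest adjusted p was 0.253. Of all genes tested, 0.0334% of genes passed as higher and 0.0223% as lower. The targeted Esr1, whose KO mean was 48.9% of its WT mean, did not pass either (adjusted p = 0.0925 by limma). Missing this threshold therefore does not show that a level was unchanged. At an unadjusted p under 0.05 there were 7 of the 30 (Ddit3, Hsp90b1, Creld2, Dnajb11, Dnajc3, Pdia3 and Pdia4), all higher in KO, where 7.89% of all genes were higher at that level. In 13 of the 30 every KO library lay above every WT library, beside 13.5% of all genes tested; in 0 of the 30 did the KO libraries lie below. The 4 untested genes had overlapping groups.

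The differences depended on the scale. When each library was divided by the median ratio of its genes to their mean over libraries (median-of-ratios scaling), all tested genes had a median of 0.01 on the log2 scale in place of 0.12, and the stress and folding genes 0.13 in place of 0.26. On that scale 26 of the 30 were higher and 4 (Dnajb9, Syvn1, Os9 and P4hb) were lower, beside 52.3% of all genes higher. At an unadjusted p under 0.05 there were 2 of the 30, Ddit3 and Dnajc3, beside 3.96% of all genes. These 2 were also the genes whose groups still did not overlap, beside 6.58% of all genes. None of the 30 passed the adjusted threshold by limma on this scale (0.0111% of all genes higher, 0.0223% lower), and none was lower at an unadjusted p under 0.05 (4.85% of all genes) or lower without overlap (7.44%). Rescaling the protein-coding genes alone to a common total went the other way, with 16 higher at an unadjusted p under 0.05 (19% of all genes on that scale), 0 past the adjusted threshold by limma, and a median of 0.32 beside 0.17 for all genes.

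**Figure D1:**
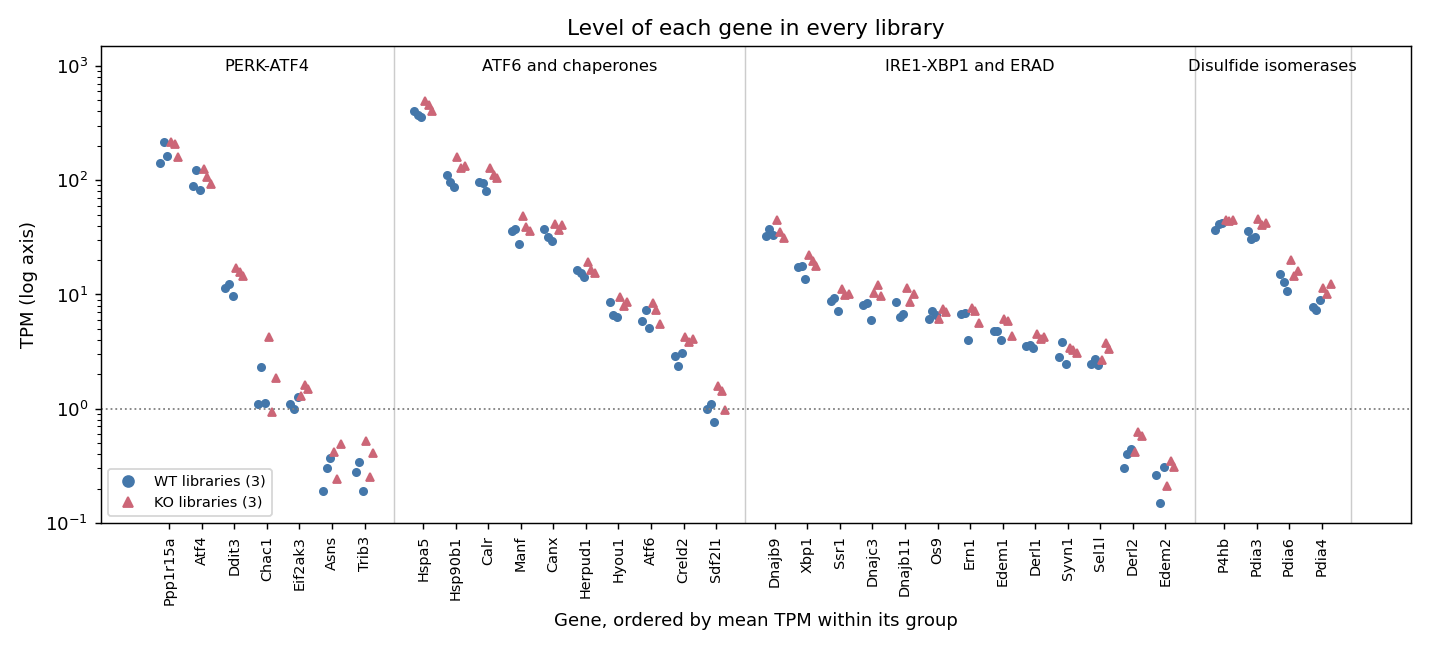
TPM of each of the 34 genes in every library on a log axis, by group; circles are the 3 WT libraries, triangles the 3 KO libraries, and the dotted line marks 1 TPM. Hspa5 stands highest and the 4 untested genes lie below the line, so the list spans levels from under 1 TPM to that of Hspa5 while for most genes the 6 libraries stay close together.

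The values were not spread evenly over the libraries. KO library 1 held the highest value of all 6 libraries for 22 of the 30 tested genes, whereas it was the highest for 13.9% of all genes tested. WT library 3 held the lowest value for 20 of the 30, and for 38.9% of all genes. Relative to the WT mean of each gene, the WT libraries 1 to 3 had medians over the 30 of 0.05, 0.07 and -0.14, and the KO libraries 1 to 3 had 0.39, 0.26 and 0.21. All tested genes had medians of -0.05, 0.13 and -0.07 in the WT libraries and 0.05, 0.20 and 0.10 in the KO libraries. KO library 1 thus combined the highest stress and folding values with a small general shift. Without it the median difference of the 30 was 0.19, beside 0.15 for all genes, so most of the distance to the general median rested on this library. Without WT library 3 the median was also 0.19, beside 0.08 for all genes, and the number at an unadjusted p under 0.05 was 4.

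**Figure D2:**
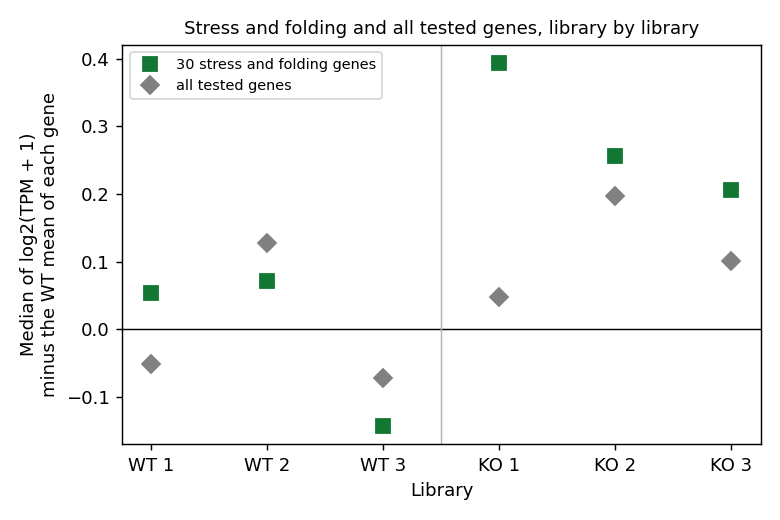
Median over genes of log2(TPM + 1) minus the WT mean of the gene, in each library; squares are the 30 tested stress and folding genes, diamonds all 8971 tested genes. The squares reach 0.39 in KO library 1, where the diamond lies at 0.05, and the distance is smaller in KO libraries 2 and 3.

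Other measures of the libraries differed too. The summed TPM of 20 immediate early and heat shock genes that cell isolation can induce reached 4019, 4679 and 5151 TPM in the WT libraries. It was 3335, 5104 and 4302 TPM in the KO libraries, so KO library 1, with the highest stress and folding values, had the lowest sum. The heat shock genes Hspa1a and Hspa1b were the largest parts of this sum, and both were lowest in KO library 1 (988 and 891 TPM). Immediate early genes were mixed in KO library 1. Atf3 and Fosb were lowest there, Fos (124 TPM) lay within the WT range and Zfp36 (161 TPM) was highest. KO library 1 also held the lowest Schwann cell marker sum among the KO libraries, 44.6 TPM. The erythroid markers summed to 215, 43.7 and 18.2 TPM in WT and 419, 437 and 38.4 TPM in KO, lowest in WT library 3 and high in KO libraries 1 and 2. The part of these differences in the values of the stress and folding genes was not tested.

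The promoters of these genes carry short elements by which the arms are known to act. The window searched was the 250 bases before the RefSeq start of each gene (GRCm38.p6), on both strands. Such a window was matched by symbol for 30 of the 34 genes; Atf6, Hyou1, Manf and Derl1 had no entry. The endoplasmic reticulum stress element (ERSE, CCAAT and CCACG separated by any 9 bases), to which NF-Y and ATF6 bind, was found in 8 of the 30 windows (26.7%) and in 0.13% of 27025 genes. The genes were listed for their known part in this response, so the excess is no finding of these data. Of 27 other genes with the element, 1 (Hnrnpa3) passed the filter on low values. The sites in the listed genes are shown because 5 of the 10 genes of the ATF6 and chaperone group hold one. Each is read 5′ to 3′ on the strand that carries it, with the CCAAT and CCACG blocks in capitals and the spacer in lower case:
Hspa5: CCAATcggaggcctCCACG
Hsp90b1, strand of the gene: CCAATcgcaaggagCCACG
Hsp90b1, opposite strand: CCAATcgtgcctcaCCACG
Calr: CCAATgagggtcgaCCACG
Canx: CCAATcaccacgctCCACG
Creld2: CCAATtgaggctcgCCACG
Dnajc3: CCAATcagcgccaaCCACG
Syvn1: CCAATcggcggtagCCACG
Pdia6: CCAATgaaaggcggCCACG

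Hsp90b1 was the gene with a pair of these elements, which ended 194 and 89 bases before the start. Hspa5 had its match 65 to 47 bases before the start and Syvn1 44 to 26 bases before it. These positions hold for the RefSeq starts. The last 120 bases of the Hspa5 window lie in an exon of the GENCODE annotation, as do 65 of the Hsp90b1 window. All 250 bases of the Pdia3, Dnajb9 and Derl2 windows lie in exons, as do 181 of the Ddit3 and 112 of the Ppp1r15a window. Exons of any gene on either strand were counted, and the Derl2 window lies wholly outside the annotated span of Derl2. The starts of Hsp90b1, Dnajc3 and Pdia4 matched no GENCODE start. The 8 genes with the element had a median difference of 0.35, from 0.10 (Syvn1) to 0.50 (Hsp90b1), and the 18 tested genes with a window and no exact match had a median of 0.23. This split was made after the values were known and was given no test. A gene without the exact letters can still answer ATF6, so a missing match says only that these letters are not in the window.

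The related element ERSE-II (ATTGG and CCACG separated by any 1 base), which shares the CCACG block, was found in Herpud1 alone of the 30, and in 0.037% of all genes. The element bound by ATF4 with a C/EBP partner (TGATGNAA) was found in Asns, Chac1 and Herpud1, or 10% of the windows against 3.91% of all genes. The XBP1-type element TGACGTGG and the palindromic estrogen response element (GGTCA and TGACC separated by any 3 bases) were in 0 of the 30 windows, and in 0.603% and 0.0666% of all genes. The 3 windows below show the arrangement in Creld2, which had the smallest p of the list, in Dnajc3, whose groups stayed apart under both scales, and in Herpud1, which has both other elements. Capitals mark the fixed letters of each element, read along the strand of the gene, so that a site on the opposite strand appears as its reverse complement.
Creld2, chr15:88819396-88819645, plus strand: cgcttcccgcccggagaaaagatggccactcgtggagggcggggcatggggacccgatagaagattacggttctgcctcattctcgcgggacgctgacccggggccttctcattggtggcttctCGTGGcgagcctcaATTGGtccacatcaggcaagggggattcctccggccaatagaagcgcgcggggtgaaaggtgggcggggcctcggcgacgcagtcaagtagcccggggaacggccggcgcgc
Dnajc3, chr14:118937682-118937931, plus strand: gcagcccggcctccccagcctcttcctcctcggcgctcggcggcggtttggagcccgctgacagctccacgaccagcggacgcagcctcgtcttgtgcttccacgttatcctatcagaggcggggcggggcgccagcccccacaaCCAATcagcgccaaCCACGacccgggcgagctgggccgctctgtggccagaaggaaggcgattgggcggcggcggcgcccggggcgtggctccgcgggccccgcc
Herpud1, chr8:94386179-94386428, plus strand: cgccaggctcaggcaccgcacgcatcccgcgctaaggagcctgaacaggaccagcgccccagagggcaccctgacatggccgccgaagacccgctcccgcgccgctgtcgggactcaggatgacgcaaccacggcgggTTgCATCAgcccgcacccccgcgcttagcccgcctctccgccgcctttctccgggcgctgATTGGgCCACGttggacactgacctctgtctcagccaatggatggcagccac

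The ATF6 arm and the lumenal chaperones included Hspa5, the most abundant transcript of the list, and all 10 had positive differences, with a median of 0.26 (0.13 under median-of-ratios scaling). Summed over the 10 genes, the level was 718, 667 and 609.6 TPM in WT libraries 1 to 3 and 913, 813 and 752 TPM in KO libraries 1 to 3. These sums, of TPM as deposited and with Hspa5 as their largest part, did not overlap. Median-of-ratios scaling divides WT library 1 by 0.90 and KO library 2 by 1.13. On that scale the sum in KO library 2 lay below that in WT library 1, and 0 of the 10 genes were without overlap. Hspa5 encodes BiP, the Hsp70 chaperone of the reticulum that also holds the sensors inactive, and was the most abundant gene of the list. It held 402, 372 and 355 TPM in WT and 493, 460.2 and 404 TPM in KO. All KO values lay above all WT values, but KO library 3 exceeded WT library 1 by little. The log2 difference was 0.26 (SE 0.14, limma adjusted p = 0.546), 0.11 under median-of-ratios scaling, where the groups overlapped, and 0.61 after quantile normalization.

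Hsp90b1, which encodes the Hsp90 chaperone GRP94 and lies on chromosome 10 at 86690209 to 86705509 (GRCm38, minus strand), had the largest difference of the list on the log2(TPM + 1) scale as deposited. After quantile normalization Hspa5 came first, with a pseudocount of 0.1 Creld2, with library weights Pdia4, and without WT library 3 also Pdia4. Leaving out KO library 2 put Chac1 first, and leaving out WT library 2 or KO library 1 put Dnajc3 first. Hsp90b1 held 111, 97.2 and 87.1 TPM in WT and 159, 128 and 133 TPM in KO, with a gap between the groups. The difference was 0.50 (SE 0.15, limma adjusted p = 0.276), larger than in 95.9% of all tested genes, and 0.35 under median-of-ratios scaling. The gene overlaps Gm15344 and Gm25745 on its own strand and 1810014B01Rik on the other, and the sources used here give no strandedness, so their reads may not be separated. The same holds for Ppp1r15a with Tulp2, Pdia3 with Catsper2, Pdia6 with Atp6v1c2, Manf with Rbm15b and Dcaf1, Syvn1 with Mrpl49, Derl2 with Mis12 and Dnajb11 with Gm30505.

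Calr, the calcium-binding lectin chaperone calreticulin, held 96.9, 95.4 and 81.2 TPM in WT and 129, 112 and 105 TPM in KO, again without overlap (difference 0.33, SE 0.15, limma adjusted p = 0.473). Canx, its membrane-bound relative calnexin, overlapped between the groups, at 37.1, 32.0 and 29.5 TPM in WT and 41.3, 36.6 and 40.7 TPM in KO. Creld2, a secreted factor induced by reticulum stress on chromosome 15 at 88819646 to 88826683 (plus strand), was low but tightly grouped. Its values were 2.89, 2.37 and 3.05 TPM in WT and 4.20, 3.84 and 4.09 TPM in KO. It had the smallest p of the list, with a difference of 0.42 (SE 0.12, limma unadjusted p = 0.0084, adjusted p = 0.253) and 0.30 under median-of-ratios scaling.

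Less separated were the remaining genes of this group. Hyou1, a large Hsp70-like nucleotide exchange factor, differed by 0.25, Manf, a secreted protective factor of the reticulum, by 0.28, and Sdf2l1, a partner of the lumenal J proteins, by 0.25, each with overlapping groups. Manf went from 33.6 ± 5.17 to 41.1 ± 6.57 TPM (SD, n = 3 each). Sdf2l1 lay near the filter, between 0.76 and 1.57 TPM. Atf6 itself held 5.82, 7.36 and 5.07 TPM in WT and 8.46, 7.34 and 5.51 TPM in KO, a difference of 0.19 within the spread of the libraries. Herpud1, a membrane protein of the degradation machinery that both ATF6 and ATF4 can induce, differed by 0.15, and by 0.01 under median-of-ratios scaling.

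**Figure D3:**
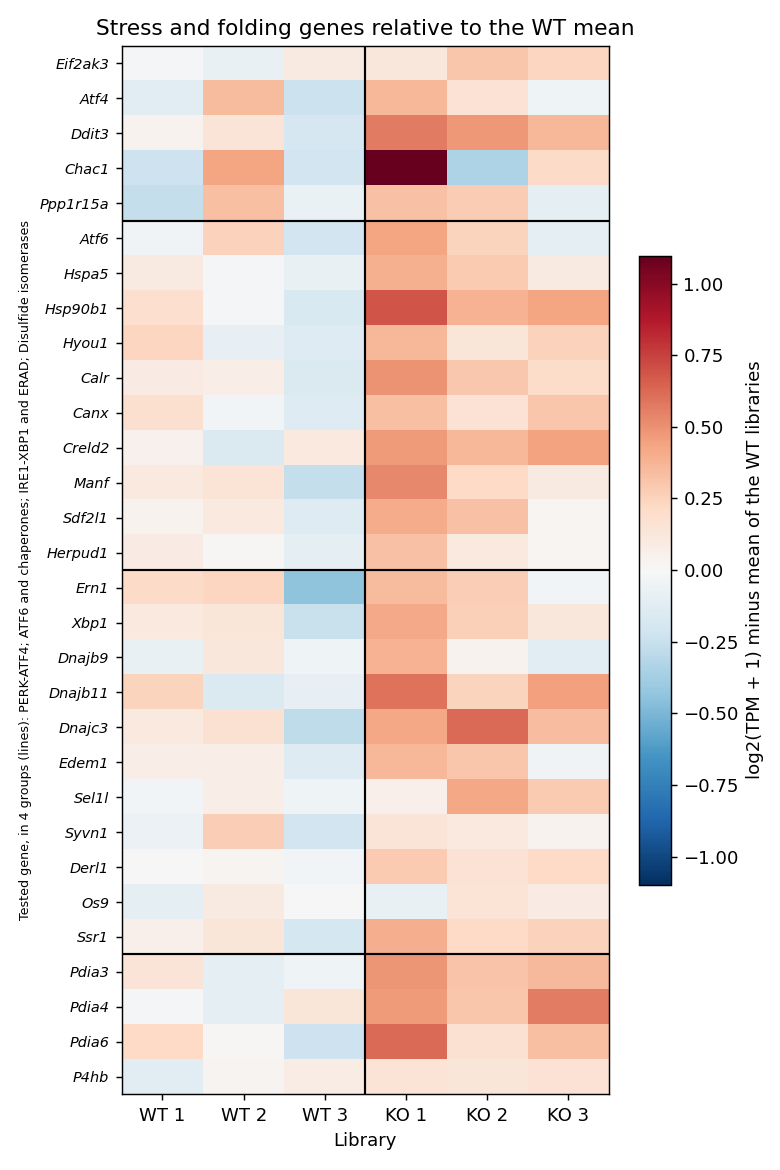
Each tested gene in each library as log2(TPM + 1) minus the mean of the 3 WT libraries (red higher, blue lower), with black lines between the 4 groups and between WT and KO. The KO side is red for most genes and deepest in KO library 1, and Chac1, Atf4 and Ppp1r15a are also red in WT library 2.

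The disulfide isomerases form and reshuffle disulfide bonds in folding proteins, and 3 of the 4 had no overlap between the groups, beside 13.5% of all genes tested. Under median-of-ratios scaling, where 6.58% of all genes were higher without overlap, all 4 isomerases overlapped between WT and KO. Their median difference was 0.38, the highest of the 4 groups except with estimated library weights, where it was 0.25 beside 0.27 for the PERK-ATF4 group, and 0.23 under median-of-ratios scaling. Without KO library 1 it was 0.29. The summed level, of TPM as deposited, was 95.8, 91.7 and 93.7 TPM in WT and 122, 109 and 116 TPM in KO. The means were 93.7 ± 2.02 TPM in WT and 116 ± 6.40 TPM in KO (SD, n = 3 each), and KO library 1 was the highest. Under median-of-ratios scaling WT library 1 is divided by 0.90 and KO library 2 by 1.13. These sums then overlapped, with KO library 2 below WT library 1.

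Pdia4, an isomerase that works with BiP, held 7.84, 7.35 and 8.86 TPM in WT and 11.5, 10.1 and 12.3 TPM in KO. Each KO value lay above every WT value, and the highest was KO library 3. The difference was 0.44 (SE 0.14, limma adjusted p = 0.272). Pdia3, also called ERp57, which works with calnexin and calreticulin on glycoproteins, held 36.1, 30.5 and 31.6 TPM in WT and 46.0, 40.9 and 42.1 TPM in KO, without overlap (difference 0.39, SE 0.13, limma adjusted p = 0.349). Pdia6, which also tempers the IRE1 sensor, overlapped between the groups at 15.0, 12.8 and 10.7 TPM in WT and 20.1, 14.4 and 16.2 TPM in KO, because KO library 2 lay below WT library 1. P4hb, the classical isomerase and a subunit of prolyl 4-hydroxylase, stood apart from these. It held 36.9, 41.1 and 42.6 TPM in WT and 44.6, 43.9 and 45.0 TPM in KO, a difference of 0.15 that went to -0.0002 under median-of-ratios scaling.

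The IRE1-XBP1 arm and the degradation machinery were mixed, with differences from 0.05 to 0.46 and a median of 0.22 over 11 tested genes (0.10 under median-of-ratios scaling). Ern1, the sensor, held 6.80, 6.94 and 3.98 TPM in WT and 7.58, 7.17 and 5.63 TPM in KO; WT library 3 was low and KO library 3 lay within the WT range. Without WT library 3 the difference of Ern1 turned from 0.20 to -0.02. Xbp1 held 17.5, 17.9 and 13.5 TPM in WT and 21.96, 19.6 and 17.8 TPM in KO, with KO library 3 just below WT library 2. Its difference was 0.27 (SE 0.16, limma adjusted p = 0.581), and 0.15 without WT library 3. A TPM per gene does not tell the spliced from the unspliced Xbp1 transcript, so the activity of IRE1 is not measured by these values.

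Among the J proteins, which drive BiP, Dnajc3 and Dnajb11 were separated and Dnajb9 was not. Dnajc3, also called p58IPK, an inhibitor of PERK on chromosome 14 at 118937976 to 118981697 (plus strand), held 8.08, 8.50 and 5.98 TPM in WT and 10.3, 11.99 and 9.70 TPM in KO. It was 1 of 4 tested genes of the list highest in KO library 2. Its difference of 0.46 (SE 0.16, limma adjusted p = 0.344) was 0.33 under median-of-ratios scaling, still without overlap. Dnajb11, also called ERdj3, held 8.65, 6.33 and 6.68 TPM in WT and 11.4, 8.66 and 10.2 TPM in KO, where KO library 2 and WT library 1 all but touched (difference 0.43, SE 0.16, limma adjusted p = 0.373). Dnajb9, or ERdj4, a typical XBP1 target, held 32.5, 37.4 and 33.3 TPM in WT and 45.0, 35.2 and 31.5 TPM in KO; KO library 1 was high and the other two did not exceed WT library 2. Without KO library 1 its difference turned from 0.10 to -0.04.

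The remaining genes of this group recognise and export failed proteins, except Ssr1, which belongs to the import side. Derl1, a channel component, held 3.54, 3.62 and 3.43 TPM in WT and 4.54, 4.07 and 4.28 TPM in KO, without overlap, and Ssr1, a subunit of the translocon-associated complex, differed by 0.29, from 8.35 ± 1.09 to 10.4 ± 0.754 TPM (SD, n = 3 each), also without overlap. Sel1l, the adaptor of the ubiquitin ligase, differed by 0.26, Edem1, a mannosidase-like lectin, by 0.21, and Syvn1, the ubiquitin ligase HRD1 itself, by 0.10 (-0.008 without WT library 3), each with overlap. Os9, a lectin of the same complex, had the smallest difference of the list, at 6.08, 7.10 and 6.60 TPM in WT and 6.15, 7.41 and 7.06 TPM in KO (0.05, and -0.08 under median-of-ratios scaling). Derl2 was at 0.30 to 0.62 TPM and Edem2 at 0.15 to 0.35 TPM over the 6 libraries.

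**Figure D4:**
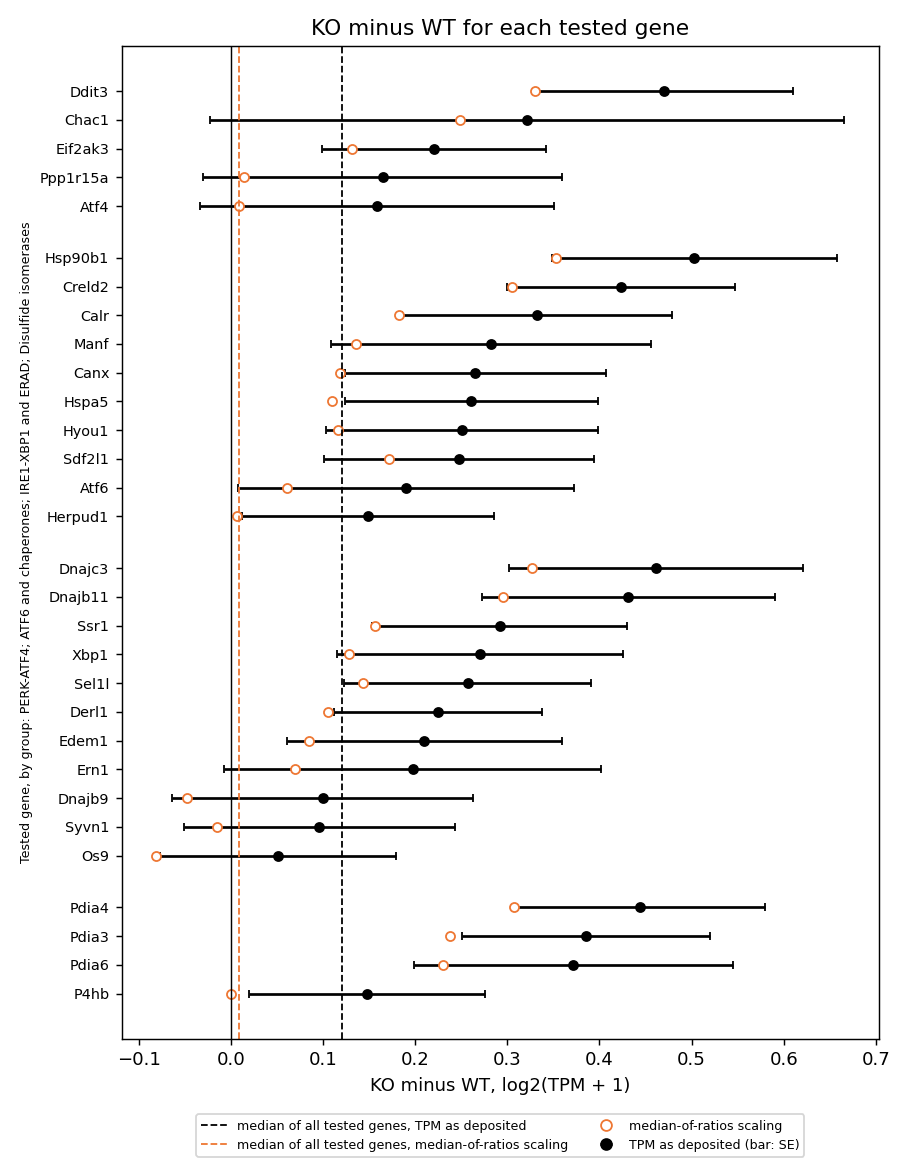
KO minus WT on the log2(TPM + 1) scale for the 30 tested genes, by group; filled points are TPM as deposited with the standard error as a bar, open points the values under median-of-ratios scaling, and dashed lines the medians of all tested genes on the 2 scales. Hsp90b1, Ddit3, Dnajc3, Pdia4, Dnajb11 and Creld2 lie farthest to the right, from 0.42 to 0.50, and Os9 lies at 0.05.

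The median of the PERK-ATF4 arm varied most between libraries of 1 genotype, with a pooled SD of 0.23 on the log2 scale beside 0.08 to 0.12 in the other groups. Its summed level overlapped between the groups at 246, 355 and 257 TPM in WT and 363, 334 and 271 TPM in KO. The median difference was 0.22 over 5 tested genes, 0.13 under median-of-ratios scaling, and 0.08 without KO library 1. Ddit3, which encodes the stress-induced transcription factor CHOP, was with Eif2ak3 1 of 2 genes of this arm without overlap, beside 13.5% of all genes tested. It held 11.4, 12.4 and 9.63 TPM in WT and 17.0, 15.8 and 14.5 TPM in KO, a ratio of means of 1.42 with a clear gap. The difference was 0.47 (SE 0.14, limma unadjusted p = 0.00968, adjusted p = 0.27), and 0.33 under median-of-ratios scaling, still without overlap.

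Atf4 and Ppp1r15a, on either side of Ddit3 in this arm, overlapped between the groups. Atf4, which is controlled mainly at translation, held 88.9, 123 and 81.4 TPM in WT and 124, 107 and 92.9 TPM in KO. Ppp1r15a, which encodes GADD34, the phosphatase subunit that restores translation, was the second most abundant gene of the list, at 143, 216 and 163 TPM in WT and 215, 207 and 159 TPM in KO. In both genes WT library 2 matched the highest KO values, and the difference was 0.16 in each. It was 0.01 in each under median-of-ratios scaling, and 0.40 in Ppp1r15a and 0.11 in Atf4 after quantile normalization. With 1 library left out it lay between 0.03 (without WT library 1) and 0.33 (without WT library 2) in Ppp1r15a, and between 0.04 (without WT library 3) and 0.33 (without WT library 2) in Atf4. Chac1, a glutathione-degrading enzyme induced through ATF4, was the most variable, at 1.10, 2.32 and 1.13 TPM in WT and 4.26, 0.94 and 1.84 TPM in KO; without KO library 1 its difference turned from 0.32 to -0.07. Eif2ak3, the PERK sensor, lay just above the filter, at 1.09, 1 and 1.26 TPM in WT and 1.30, 1.61 and 1.49 TPM in KO, without overlap (difference 0.22, limma adjusted p = 0.562). Trib3, a pseudokinase that answers CHOP, stayed between 0.19 and 0.52 TPM and Asns, the asparagine synthetase, between 0.19 and 0.49 TPM.

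**Figure D5:**
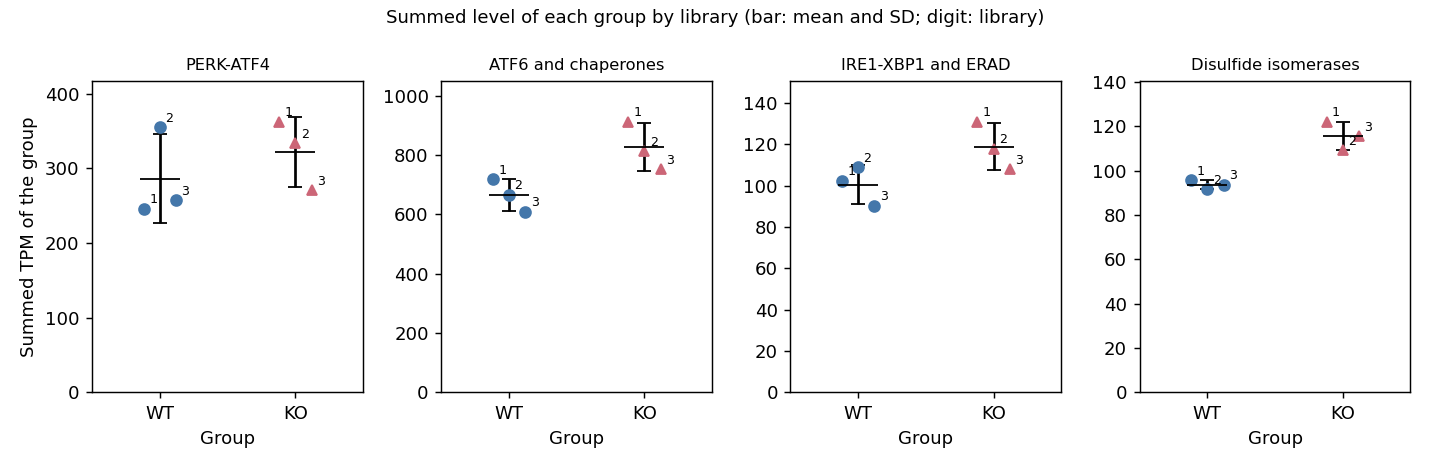
Summed TPM of the genes of each group in every library, with axes from 0; circles are WT and triangles KO libraries, digits give the library, and the bar shows the mean and SD (n = 3 each). On TPM as deposited the KO sums lie above the WT sums for the chaperones and the disulfide isomerases, and overlap for the PERK-ATF4 and the IRE1-XBP1 groups. Median-of-ratios scaling divides WT libraries 1 to 3 by 0.90, 1.07 and 0.88 and KO libraries 1 to 3 by 0.99, 1.13 and 1.04. On that scale the sums of the chaperones and of the disulfide isomerases overlap too, with KO library 2 below WT library 1.

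Neighbouring genes of the pathway, in 6 further lists, lay between the 34 genes and the table at large. Of 130 tested genes 115 were higher in KO and 15 lower, beside 77.6% of all genes higher. Under median-of-ratios scaling 84 were higher and 46 lower, beside 52.3% of all genes higher. The median difference was 0.18 on TPM as deposited, beside 0.12 for all genes (0.06 beside 0.01 under median-of-ratios scaling). On TPM as deposited 0 passed the adjusted threshold by limma. At an unadjusted p under 0.05 there were 19 higher and 1 lower, beside 7.89% and 2.66% of all genes. Under median-of-ratios scaling there were 4 higher and 6 lower, beside 3.96% and 4.85%. Of 26 tested genes of the translocon, the signal peptidase and the oligosaccharyltransferase, through which new proteins enter the reticulum, 24 were higher, 7 of them at an unadjusted p under 0.05, with a median of 0.24. Under median-of-ratios scaling 17 of the 26 were higher, beside 52.3% of all genes, 2 of them at an unadjusted p under 0.05, with a median of 0.11. Srp54a, a subunit of the signal recognition particle, went from 3.10 ± 0.238 to 4.44 ± 0.405 TPM and Sec61g, a translocon subunit, from 13.5 ± 1.61 to 17.8 ± 0.225 TPM (SD, n = 3 each). The adjusted p by limma was 0.27 and 0.356. In log2 they differed by 0.41 and 0.37, and by 0.29 and 0.23 under median-of-ratios scaling.

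Further folding genes were also mostly higher in KO, none past the adjusted threshold by limma, where 77.6% of all genes were higher. Of 21 tested genes of oxidative folding and proline isomerisation 20 were higher (median 0.22), and of 22 other chaperones and glycoprotein quality control genes 20 (median 0.18). Under median-of-ratios scaling 16 of each were higher (medians 0.11 and 0.06), beside 52.3% of all genes. In the first list Ppic, a proline isomerase, differed by 0.58, Fkbp7 by 0.38 and Qsox1, a sulfhydryl oxidase, by 0.32, each without overlap. Rcn1, a calcium-binding protein of the lumen, went from 3.24 ± 0.415 to 4.99 ± 0.558 TPM (SD, n = 3 each), without overlap and with an adjusted p of 0.23 by limma. Other degradation genes had a median of 0.11 over 20 tested, close to that of all genes. Other transducers had a median of 0.19 over 17 tested, among them the adaptor Traf2 at 1.57 ± 0.408 and 2.33 ± 0.182 TPM.

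Among further targets of ATF4 and CHOP, 18 of 24 tested genes were higher and 6 lower, a share near the 77.6% of all genes (median 0.16, and 0.03 under median-of-ratios scaling). The 3 with the smallest p were all lower in KO. Cebpb, a partner of both ATF4 and CHOP, held 104 ± 10.8 TPM in WT and 78.7 ± 10.4 TPM in KO (SD, n = 3 each), a difference of -0.40 (limma unadjusted p = 0.0317, adjusted p = 0.402). Shmt2, a mitochondrial serine-handling enzyme, lay at 2.05 ± 0.0981 and 1.54 ± 0.169 TPM, and Vldlr, a lipoprotein receptor, at 3.18 ± 0.191 and 2.46 ± 0.304 TPM. In these 3 genes every KO library lay below every WT library, as in 3.07% of all genes tested, whereas all 3 KO libraries of Ddit3 lay above. Under median-of-ratios scaling 3 of the 24 were lower and 0 higher at an unadjusted p under 0.05 by limma. The shares of all genes were 4.85% and 3.96%. Without overlap 4 were lower and 0 higher on that scale, beside 7.44% and 6.58% of all genes.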

How the data were processed

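The authors deposited 1 table of TPM per gene symbol for the 6 libraries, scaled for transcript length and for each library's total; the sources used here do not say how transcripts were summed per symbol. Tools listed in the submitters' processing notes, without order, are kallisto, CASAVA, FastQC and Trimmomatic 0.33, and the builds listed are mm10 and GRCm38. The listed values add up to 295306 to 334382 TPM per library, and depth is unknown.

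Libraries were grouped by the genotype in the labels and numbered in accession order. Genes reaching 1 TPM in 3 or more libraries (8971) were tested on log2(TPM + 1), a scale that understates changes of low genes, with limma 3.58.1 in R 4.3.3 (lmFit, eBayes with a trend, two-sided) and Benjamini-Hochberg adjustment over all of them. The procedure was tested on simulated data. The 34 genes, their groups, the further lists (152 symbols, 147 found) and the markers were chosen with earlier results of these data known. All 34 were to be named, and up to 3 genes of each further list with the smallest p, of which 1 is not reported here; no p was computed over a list. Coordinates are from GENCODE vM21 (GRCm38), promoter windows from RefSeq (GRCm38.p6). Alternatives were pseudocounts of 0.1 and 5, other filters, 3 rescalings, eBayes without a trend, library weights, and leaving out each library.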

Additional observations from a re-analysis of the deposited data

How the results depend on the processing

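None of the stress and folding genes tested (30, or 22 at a minimum of 5 TPM) passed an adjusted p of 0.05 by limma in any of the 16 alternatives; the smallest adjusted p was 0.0566 with protein-coding genes rescaled and 0.0691 with estimated library weights, which gave WT library 1 a weight of 4.10 and the others 0.41 to 1.53. Where not stated, the cause of a change was not tested. The number at an unadjusted p under 0.05 (7) was 2 under median-of-ratios scaling (3.96% of all genes higher) and 16 with protein-coding genes rescaled (19% of all genes higher). It was 4 to 8 when 1 library was left out. The number without overlap (13) was 2 under median-of-ratios scaling (6.58% of all genes higher) and 7 after quantile normalization, where no share of all genes was computed. Median differences under median-of-ratios scaling and quantile normalization were 0.13 and 0.14 for the 30 genes, 0.10 and 0.080 for the IRE1-XBP1 group and 0.23 and 0.24 for the disulfide isomerases; the ATF6 group was at 0.13 under the first. The isomerases were at 0.25 with library weights and at 0.29 to 0.45 with 1 library left out.

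Signs turned for Dnajb9 (-0.047 and -0.048 under these 2 scalings, and -0.042 to 0.21 with 1 library left out), Syvn1 (-0.015, -0.026, and -0.0076 to 0.23), Os9 (-0.081 and -0.11), P4hb (-0.00018 under median-of-ratios scaling), Herpud1 (-0.031 after quantile normalization), Chac1 (-0.067 to 0.65 with 1 library left out) and Ern1 (-0.023 to 0.31).

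Of the other pathway genes, the number higher at an unadjusted p under 0.05 (19) was 8 at a minimum of 5 TPM, 4 under median-of-ratios scaling and 3 after quantile normalization. It was 41 with protein-coding genes rescaled, 46 with library weights and 6 to 23 with 1 library left out. The share of all genes at that level also moved, from 7.89% to 3.96% under median-of-ratios scaling and to 19% with protein-coding genes rescaled. It was not computed for the other settings, so the 46 has no share to stand beside. With library weights 1 of the other pathway genes passed the adjusted threshold. The median of the other pathway genes was 0.11 with a pseudocount of 5, 0.056 and 0.035 under the 2 scalings and 0.24 with protein-coding genes rescaled.

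Over all genes, 3 were higher and 2 lower at an adjusted p under 0.05. The higher count was 0 with a pseudocount of 0.1, with no filter and with a mean filter, 1 at a minimum of 5 TPM and under both scalings, 39 with protein-coding genes rescaled, 53 with library weights and 0 to 4 with 1 library left out. The lower count was 0 with a pseudocount of 5, no filter, a mean filter and quantile normalization, 49 and 27 with rescaled protein-coding genes and library weights, and 0 to 2 with 1 library left out. Esr1 passed with rescaled protein-coding genes (-0.81, adjusted p = 0.0384) and library weights (-0.86, adjusted p = 0.0222). No paired analysis was possible because the numbers in the sample titles are shared by no pair of libraries. Depth is unknown, so values under 1 TPM carry no stated precision.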
